A study of Mus musculus with 6 samples.

Results

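Myoglobin (*Mb*), cytoglobin (*Cygb*) and neuroglobin (*Ngb*) are the mouse globin genes examined here, chosen as the rows of the gene count table whose names are *Mb*, *Cygb* or *Ngb*, that is, globins that lie outside the alpha and beta clusters, and 3 of 55487 genes in the table were members. The study asked what the loss of adult beta-globin does in cartilage. RNA was taken from knee joint cartilaginous tissue of mice at postnatal day 6, in 3 *Hbb*-cKO libraries, with *Hbb* deleted conditionally in chondrocytes, and in 3 wild-type (WT) libraries, and poly(A) RNA was sequenced. The study's methods describe mice with floxed *Hbb-bs* and *Hbb-bt*, the adult beta-globin genes, on a C57BL/6J background, bred to *Prx1-Cre*, which acts in limb mesenchymal cells and their descendants, or to the tamoxifen-induced *Col2a1-CreERT2*, which acts in chondrocytes. The study gives the name *Hbb*-cKO to the *Col2a1-CreERT2* mice, while its sequencing section and the labels name no driver for the libraries. Mice of either sex were used in the study, and the sex and number of mice behind each library were not stated, so that p-values measure only the spread between libraries. The tissue was counted as a whole.

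Globins are small haem proteins that bind oxygen. Myoglobin stores and carries oxygen in heart and skeletal muscle fibres, most of all in slow and oxidative fibres, and also reacts with nitric oxide. Cytoglobin is made in fibroblasts, pericytes and related stromal cells of many organs, and acts on nitric oxide and reactive oxygen species once its haem iron has been reduced by cytochrome b5 and its reductases. Neuroglobin is known from neurons and the retina, and its messenger RNA is scarce in most other tissues.

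*Mb* (ENSMUSG00000018893) lies on the minus strand of chr15:77015487-77050670 in GRCm38, spanning 35184 bases, and GENCODE M21 gives it 6 transcripts with 1492 bases of merged exons and a coding length of 462 bases. The 250 bases before the start of one of its transcripts (ENSMUST00000169226.8, RefSeq window, GRCm38.p6, minus strand, chr15:77022788-77023037) are shown because muscle genes are known to carry E-boxes (CANNTG, bound by MyoD-family factors) and CCACCC boxes near their starts.
Mb upstream: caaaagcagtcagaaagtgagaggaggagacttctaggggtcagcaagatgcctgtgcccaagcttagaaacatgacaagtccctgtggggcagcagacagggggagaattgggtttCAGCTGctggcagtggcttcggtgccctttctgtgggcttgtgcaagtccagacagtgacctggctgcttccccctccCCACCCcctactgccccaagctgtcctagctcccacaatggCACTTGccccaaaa
The capitals mark matches to both motifs, searched on both strands: the E-boxes CAGCTG and CACTTG and the CCACCC box. Across 32851 RefSeq windows of the same length, 66.2% held CANNTG and 28.1% held CCACCC, and of 24 windows belonging to 21 genes of a sarcomere list used below, 22 held CANNTG and 12 held CCACCC. The promoter windows of *Mb* held no ACGTG, the core of the hypoxia response element, which 16.6% of all windows held. These matches describe letters only, and promoter windows for *Cygb* and *Ngb* were not used here.

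Library totals were 17405688 to 20969914 counts in *Hbb*-cKO and 16544800 to 17475496 in WT. Of the 55487 genes, 17175 passed the edgeR filter and entered the test, and their median log2 fold change of *Hbb*-cKO over WT was −0.01. Adult beta-globin (*Hbb-bs* and *Hbb-bt* summed) had 4195, 5444 and 5014 CPM (counts scaled to the library's total, after TMM factors) in *Hbb*-cKO, against 16811, 12449 and 6912 in WT, and alpha-globin (*Hba-a1* and *Hba-a2* summed) had 4481, 6181 and 5355 CPM in *Hbb*-cKO, against 19535, 14123 and 6349 in WT. The groups did not overlap for either sum. Defining chondrocyte genes stood apart in 1 library: 15 summed 21484 CPM in *Hbb*-cKO replicate 1, against 40603 to 69476 CPM in the other 5 libraries. Y-linked genes summed 57.4 to 146 CPM in *Hbb*-cKO, and 0, 0 and 122 CPM in the WT libraries. *Xist*, an RNA of female cells, had 287, 0.301 and 381 CPM in *Hbb*-cKO, and 625, 531 and 157 in WT. Both kinds were present in *Hbb*-cKO replicates 1 and 3 and in WT replicate 3. The sexes are thus unevenly mixed between the groups, and sex and genotype cannot be fully told apart.

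**Figure D1:**
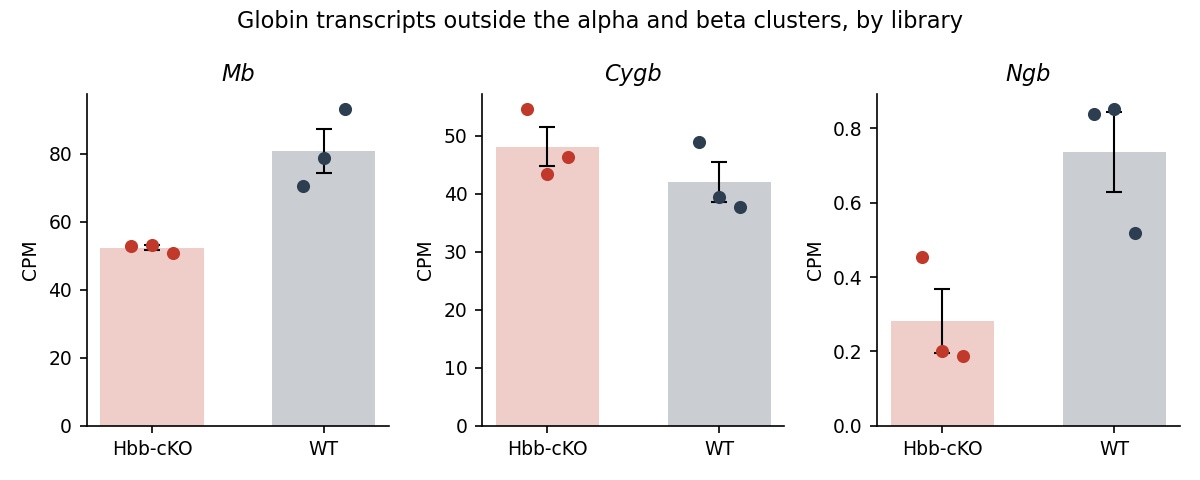
CPM (y axis, from 0) of *Mb*, *Cygb* and *Ngb* in each library, *Hbb*-cKO left and WT right. Points are libraries, bars are means and error bars are s.e.m. (n = 3 each); *Mb* and *Ngb* are lower in every *Hbb*-cKO library than in any WT library, and *Cygb* overlaps.

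*Mb* was lower in the *Hbb*-cKO libraries. It had 930, 1063 and 1079 counts in *Hbb*-cKO, against 1180, 1295 and 1614 in WT. In CPM it had 52.9, 53.3 and 50.9 in *Hbb*-cKO, against 70.7, 78.7 and 93.1 in WT. The *Hbb*-cKO libraries lay close together and all below the WT libraries, among which WT replicate 3 was highest, and the groups did not overlap. The means were 52.3 ± 0.726 in *Hbb*-cKO and 80.8 ± 6.56 in WT (s.e.m., n = 3 each), which puts *Hbb*-cKO at 64.8% of WT. The log2 fold change was −0.63 (SE 0.13, 95% interval −0.92 to −0.34), with an unadjusted p of 0.00112 and an adjusted p of 0.169 by edgeR (quasi-likelihood fit, adjusted by Benjamini-Hochberg over 17175 genes), so *Mb* did not pass 0.05. In edgeR, *Mb* ranked 114 of 17175 by p, while DESeq2 gave −0.62 with an adjusted p of 0.00893. Both tests used the same counts, and edgeR called 0.105% of tested genes and DESeq2 1.45% (0.705% as lower); groups did not overlap, lower in *Hbb*-cKO, for 8.96% of genes and, higher, for 8.7%. In bulk tissue, fewer cells of a type and less RNA per cell cannot be told apart. Without *Hbb*-cKO replicate 1 the log2 fold change was −0.63, and without WT replicate 3 it was −0.51, the value nearest 0 of the alternatives. With summed Y-linked expression as a covariate it was −0.80 (adjusted p = 0.0618 in edgeR).

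*Cygb* (ENSMUSG00000020810, chr11:116645595-116654313, minus strand, 2331 bases of exon in 1 transcript, coding length 570 bases) did not pass the test. It had 54.6, 43.4 and 46.3 CPM in *Hbb*-cKO, against 48.9, 39.4 and 37.7 in WT, with 960, 865 and 982 counts behind the *Hbb*-cKO values and 816, 648 and 653 behind the WT values. Replicate 1 was the highest of each group and the groups overlapped. The means were 48.1 ± 3.35 in *Hbb*-cKO and 42.0 ± 3.48 in WT (s.e.m., n = 3 each). The log2 fold change was 0.20 (SE 0.14, 95% interval −0.14 to 0.53), with an adjusted p of 0.700 in edgeR and 0.862 in DESeq2. Without *Hbb*-cKO replicate 1 it was 0.10.

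*Ngb* (ENSMUSG00000021032, chr12:87097531-87102539, minus strand, 3 transcripts, 1723 bases of merged exons, coding length 465 bases) was close to the limit of detection. Its counts were 8, 4 and 4 in *Hbb*-cKO, against 14, 14 and 9 in WT. In CPM it had 0.455, 0.200 and 0.189 in *Hbb*-cKO, against 0.838, 0.851 and 0.519 in WT. Each *Hbb*-cKO library was below each WT library, and 3 counts in a library correspond to between 0.142 and 0.182 CPM here. The summed counts were 16 in *Hbb*-cKO and 37 in WT, a ratio of 0.378 per total count with a 95% counting interval of 0.196 to 0.696, which covers counting error only. The exact permutation test of CPM over libraries gave p = 0.1, the smallest that 3 against 3 allows. *Ngb* did not pass the filter and so was not among the tested genes. In a fit to every gene with any count its log2 fold change was −1.38 (SE 0.52), with an adjusted p of 0.529 in edgeR. Of the neuron list (13 genes), 8 were tested, and none of them passed 0.05 in edgeR. Of these 8, 6 had a positive and 2 a negative log2 fold change (median 0.18). *Tubb3*, a neuronal tubulin that other cells also make, had 9.77, 10.02 and 6.65 CPM in *Hbb*-cKO, against 2.99, 4.99 and 3.06 in WT (log2 fold change 1.26, edgeR adjusted p = 0.180, DESeq2 0.00535). The direction of *Tubb3* was the opposite of that of *Ngb*. *Uchl1*, a ubiquitin hydrolase abundant in neurons, had 33.2, 23.6 and 30.5 CPM in *Hbb*-cKO, against 38.8, 45.5 and 34.3 in WT (adjusted p = 0.415 in edgeR). *Uchl1* lay lower in *Hbb*-cKO without overlap. *Nefh*, a neurofilament subunit, and *Rbfox3*, a neuronal splicing factor, were at 0.426 to 1.28 CPM over the 6 libraries, with overlapping groups (edgeR adjusted p = 0.680 and 0.784). Of 9 Schwann cell genes, 8 were tested, none passed 0.05 in edgeR, and all 8 had a negative log2 fold change (median −0.17). Over all tested genes 52.5% were negative, and the median of the Schwann cell genes was −0.06 without WT replicate 3. Among them the myelin genes *Prx* and *Mbp* had log2 fold changes of −0.63 and −0.98 and were highest in WT replicate 3, and the sign of *Mbp* turned without it (0.087). *Pmp22*, the most abundant and made in many cells, had 319.9, 313 and 316 CPM in *Hbb*-cKO, against 336, 321 and 379 in WT (log2 fold change −0.13, edgeR adjusted p = 0.779). It lay lower by a narrow margin, the only 1 of these 8 without overlap, against 8.96% of all tested genes as lower.

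**Figure D2:**
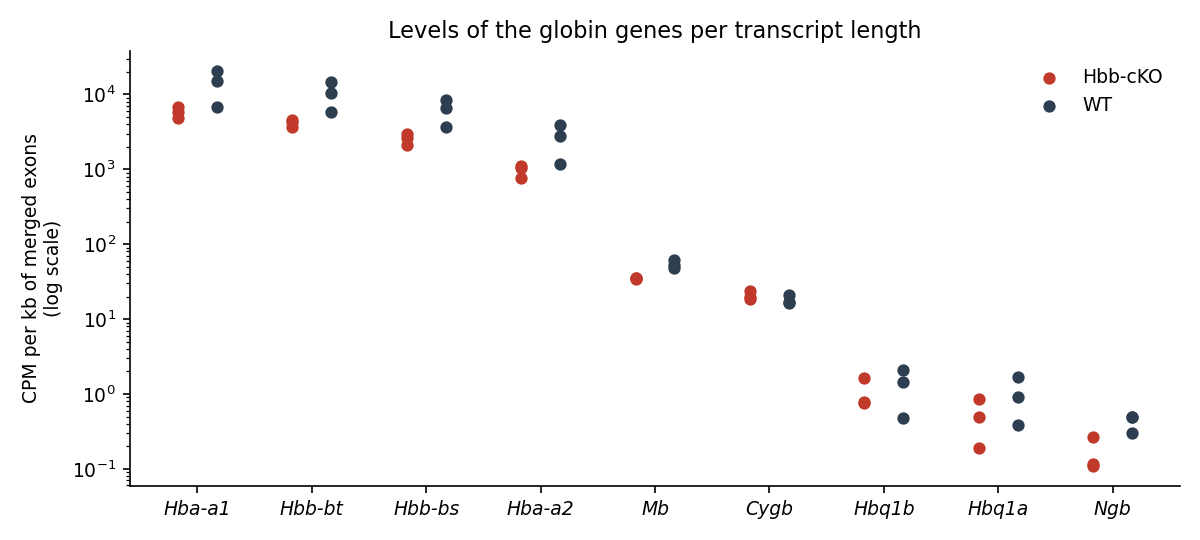
Level of the globin genes in CPM per kb of merged exons (log scale; libraries at 0 not drawn), *Hbb*-cKO left and WT right of each gene's position. Points are libraries. *Mb* and *Cygb* lie between the adult globins and *Ngb*, with *Mb* above *Cygb* in every library.

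Per length, the members kept one order in all 6 libraries: *Mb*, then *Cygb*, then *Ngb*. *Mb* averaged 35.1 CPM per kb in *Hbb*-cKO and 54.2 in WT, *Cygb* 20.6 in *Hbb*-cKO and 18.0 in WT, and *Ngb* 0.163 in *Hbb*-cKO and 0.427 in WT. Within libraries, *Mb* was 2.27-fold above *Cygb* (mean log2 ratio 1.18, SD 0.52), *Mb* was 174-fold above *Ngb*, and *Cygb* was 76.7-fold above *Ngb*. Each pair had the same direction in 6 of 6 libraries, with p = 0.03125 in an exact two-sided sign-flip permutation test, the smallest it can give with 6 libraries, and the same after Benjamini-Hochberg adjustment over the 3 pairs. By coding length the folds were 1.79, 152 and 84.6. The ratio of *Mb* counts to *Cygb* counts, times 1000, was 969, 1229 and 1099 in *Hbb*-cKO, against 1446, 1998 and 2472 in WT. The ratio was lower in every *Hbb*-cKO library than in any WT library, with a log2 difference of −0.82 (exact permutation p = 0.1, adjusted p = 0.16 over 8 ratios), and no smaller p is possible for 3 against 3.

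Adult globin was far above the members. Per kb, beta-globin was on average 191-fold above *Mb* in *Hbb*-cKO (163 to 209) and 322-fold in WT (152 to 489), and alpha-globin was 192-fold above *Mb* in *Hbb*-cKO (160 to 219) and 330-fold in WT (129 to 523). These ratios overlapped between groups. *Hbb-bs*, *Hbb-bt*, *Hba-a1* and *Hba-a2* had log2 fold changes of −1.28, −1.32, −1.31 and −1.43, none past 0.05 in edgeR (adjusted p from 0.218 to 0.321) and all 4 past it in DESeq2. With Y-linked expression as a covariate they were −0.68, −0.61, −0.42 and −0.45 (edgeR adjusted p from 0.284 to 0.577). All 4 passed 0.05 in edgeR with the sarcomere score as a covariate (adjusted p = 0.0289 each) and without WT replicate 3 (0.0335 to 0.0349). Y-linked expression and adult globin did not keep one relation over the libraries. In WT, replicate 3, with Y-linked genes at 122 CPM, had the lowest adult globin. In *Hbb*-cKO, replicate 2 had the most Y-linked expression (146 CPM) and the highest adult globin. The part of sex was not tested further. The other globins were scarce: embryonic *Hba-x* and *Hbb-bh2* had no count, *Hbb-y* 0 in *Hbb*-cKO and 4 in WT, *Hbb-bh1* 1 in *Hbb*-cKO and 0 in WT, and *Hbq1b*, the only one of these tested, 44 in *Hbb*-cKO and 48 in WT (log2 fold change −0.33, edgeR adjusted p = 0.899). Androglobin (*Adgb*), a large globin-domain protein, had 19 counts in *Hbb*-cKO and 9 in WT.

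The muscle genes that *Mb* is known from were present in every library. The 26 genes of the sarcomere list summed 48763, 39321 and 41366 CPM in *Hbb*-cKO, against 42495, 48613 and 68815 in WT, with WT replicate 3 the highest and the groups overlapping. Of 26 tested sarcomere genes, none passed 0.05 in edgeR, 9 had a positive and 17 a negative log2 fold change, and their median was −0.31, against −0.01 over all tested genes. The list's median was 0.08 without WT replicate 3. Among them, *Actn3*, which cross-links actin in fast fibres, had 986, 778 and 725 CPM in *Hbb*-cKO, against 1083, 1074 and 1346 in WT (log2 fold change −0.49, adjusted p = 0.371 in edgeR). *Tpm1*, an alpha-tropomyosin, had 1882, 1622 and 1633 CPM in *Hbb*-cKO, against 1958, 2314 and 2801 in WT (log2 fold change −0.46, adjusted p = 0.408 in edgeR). *Acta1*, skeletal actin and the most abundant of the list, had 12885, 9059 and 9748 CPM in *Hbb*-cKO, against 11441, 12364 and 17398 in WT, with the groups overlapping. *Myh2*, the myosin of fast oxidative fibres, had 226, 307 and 279 CPM in *Hbb*-cKO, against 106, 147 and 186 in WT (log2 fold change 0.89, edgeR adjusted p = 0.241, DESeq2 0.0134). *Tcap*, the titin cap protein of the Z-disc, had 216, 176 and 192 CPM in *Hbb*-cKO, against 218, 262 and 403 in WT (log2 fold change −0.60, edgeR adjusted p = 0.424). *Myh2* lay higher in *Hbb*-cKO with no overlap, while *Actn3*, *Tpm1* and *Tcap* lay lower with none. These 4 were named for the smallest p of the list, which favours groups that do not overlap. Of all 26, 2 lay higher and 4 lower without overlap, against 8.7% and 8.96% of all tested genes.

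Fibre-type lists had no call in edgeR. The median log2 fold change of the 10 slow-fibre genes was 0.15, and it was −0.066 without WT replicate 1 and −0.26 with Y-linked expression as a covariate. Slow myosin *Myh7* had 229, 236 and 258 CPM in *Hbb*-cKO, against 80.8, 122 and 223 in WT (log2 fold change 0.76, edgeR adjusted p = 0.521). *Myh7* was higher in every *Hbb*-cKO library than in any WT library, although WT replicate 3 was close. *Myoz2*, a calcineurin-binding protein of the Z-disc, had 79.8, 59.99 and 70.97 CPM in *Hbb*-cKO, against 78.4, 86.04 and 169 in WT (log2 fold change −0.66, edgeR adjusted p = 0.527). *Tpm3*, slow tropomyosin and the most abundant of the list, had 242, 214 and 246 CPM in *Hbb*-cKO, against 208, 229 and 198 in WT (log2 fold change 0.14, edgeR adjusted p = 0.745). Slow light chain *Myl2* had 41.2, 47.6 and 42.04 CPM in *Hbb*-cKO, against 22.7, 36.5 and 47.8 in WT (log2 fold change 0.29, edgeR adjusted p = 0.751). The groups overlapped for *Myoz2*, *Tpm3* and *Myl2*, and WT replicate 3 was the highest library for *Myoz2*.

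The 13 fast-fibre genes had a median of −0.33, and 3 of them were positive and 10 negative. Beside *Myh2* and *Actn3*, the fast light chain *Myl1* had 2053, 1861 and 1642 CPM in *Hbb*-cKO, against 2270.1, 2203 and 2851 in WT (log2 fold change −0.40, edgeR adjusted p = 0.470). Fast troponin *Tnni2* had 1031, 867 and 830.1 CPM in *Hbb*-cKO, against 967, 1276 and 1459.9 in WT (log2 fold change −0.44, edgeR adjusted p = 0.473). *Mylpf*, a regulatory light chain and the most abundant of the list, had 3189, 2271 and 2677 CPM in *Hbb*-cKO, against 2997, 3498 and 3891 in WT (log2 fold change −0.35, edgeR adjusted p = 0.560). *Myl1* did not overlap between the groups, while *Tnni2* and *Mylpf* did.

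The 15 oxidative muscle genes had a median of −0.07, which was 0.13 without WT replicate 3, and none passed 0.05 in edgeR. Lipoprotein lipase *Lpl* had 285, 190.4 and 279.8 CPM in *Hbb*-cKO, against 209.7, 171 and 202 in WT (log2 fold change 0.38, edgeR adjusted p = 0.532). Mitochondrial creatine kinase *Ckmt2* had 112, 114 and 92.4 CPM in *Hbb*-cKO, against 56.5, 66.7 and 116 in WT (log2 fold change 0.41, edgeR adjusted p = 0.652). The groups overlapped for both. *Cox8b*, a muscle subunit of cytochrome oxidase, had 123, 72.3 and 84.5 CPM in *Hbb*-cKO, against 96.4, 107 and 146 in WT (log2 fold change −0.32, edgeR adjusted p = 0.692). *Pdk4*, a brake on glucose oxidation, had 27.96, 39.4 and 38.2 CPM in *Hbb*-cKO, against 42.04, 23.8 and 111 in WT (log2 fold change −0.74, edgeR adjusted p = 0.711). WT replicate 3 was the highest library for *Cox8b* and *Pdk4*, and the groups overlapped. The mitochondrial carrier *Slc25a4*, the most abundant of the list, had 986, 903 and 897 CPM in *Hbb*-cKO, against 899, 948 and 1454 in WT (log2 fold change −0.24, edgeR adjusted p = 0.739).

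Of 8 genes of a heart list, 5 were tested, none passed 0.05 in edgeR and the median was −0.08 (0.075 without *Hbb*-cKO replicate 2). *Myl4*, an atrial and embryonic muscle light chain and the most abundant, had 124, 82.5 and 109 CPM in *Hbb*-cKO, against 99.6, 103 and 108 in WT (log2 fold change 0.02, edgeR adjusted p = 0.979). *Tnnt2*, cardiac troponin T, which developing skeletal muscle also makes, had 28.4, 20.7 and 26.05 CPM in *Hbb*-cKO, against 26.2, 28.9 and 59.02 in WT (log2 fold change −0.60, edgeR adjusted p = 0.576). Cardiac myosin *Myh6* had 9.32, 11.03 and 9.96 CPM in *Hbb*-cKO, against 7.19, 19.2 and 33.1 in WT (log2 fold change −0.97, edgeR adjusted p = 0.562). These 3 were present in every library with overlapping groups, and WT replicate 3 was the highest for *Tnnt2* and *Myh6*. The tested *Tnni3* (cardiac troponin I) had 3.06 to 4.56 CPM and *Ryr2* (the cardiac calcium release channel) 0.652 to 1.31 CPM over the 6 libraries, and the untested *Nppa*, *Nppb* and *Myl7* had at most 0.330 CPM in any library.

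The 20 genes of the calcineurin, MEF2 and PGC1 list, regulators of oxidative muscle genes, had a median of −0.05 (0.09 without WT replicate 3) and no call in edgeR. The nuclear receptor *Esrrb* had 2.78, 2.16 and 1.98 CPM in *Hbb*-cKO, against 1.32, 1.16 and 0.692 in WT (log2 fold change 1.12, edgeR adjusted p = 0.297). *Esrrb* was higher in every *Hbb*-cKO library than in any WT library, at a low level. *Rcan1*, an inhibitor and target of calcineurin, had 74.9, 67.6 and 70.6 CPM in *Hbb*-cKO, against 90.5, 91.1 and 74.5 in WT (log2 fold change −0.27, edgeR adjusted p = 0.504). *Nfatc1*, a factor that calcineurin activates, had 46.2, 72.6 and 47.00 CPM in *Hbb*-cKO, against 78.03, 69.5 and 72.00 in WT (log2 fold change −0.41, edgeR adjusted p = 0.516). Its relative *Nfatc2* had 50.6, 48.9 and 47.9 CPM in *Hbb*-cKO, against 57.6, 54.5 and 51.3 in WT (log2 fold change −0.15, edgeR adjusted p = 0.677). *Nfatc2* was lower in *Hbb*-cKO without overlap, by a small amount, and *Rcan1* and *Nfatc1* overlapped. *Mef2c*, the most abundant, had 182, 182 and 172 CPM in *Hbb*-cKO, against 165, 78.7 and 198 in WT (log2 fold change 0.28, edgeR adjusted p = 0.817). *Ppargc1a*, which encodes PGC1-alpha, had 5.51, 5.16 and 6.79 CPM in *Hbb*-cKO, against 6.17, 4.50 and 13.2 in WT (log2 fold change −0.45, edgeR adjusted p = 0.753).

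**Figure D3:**
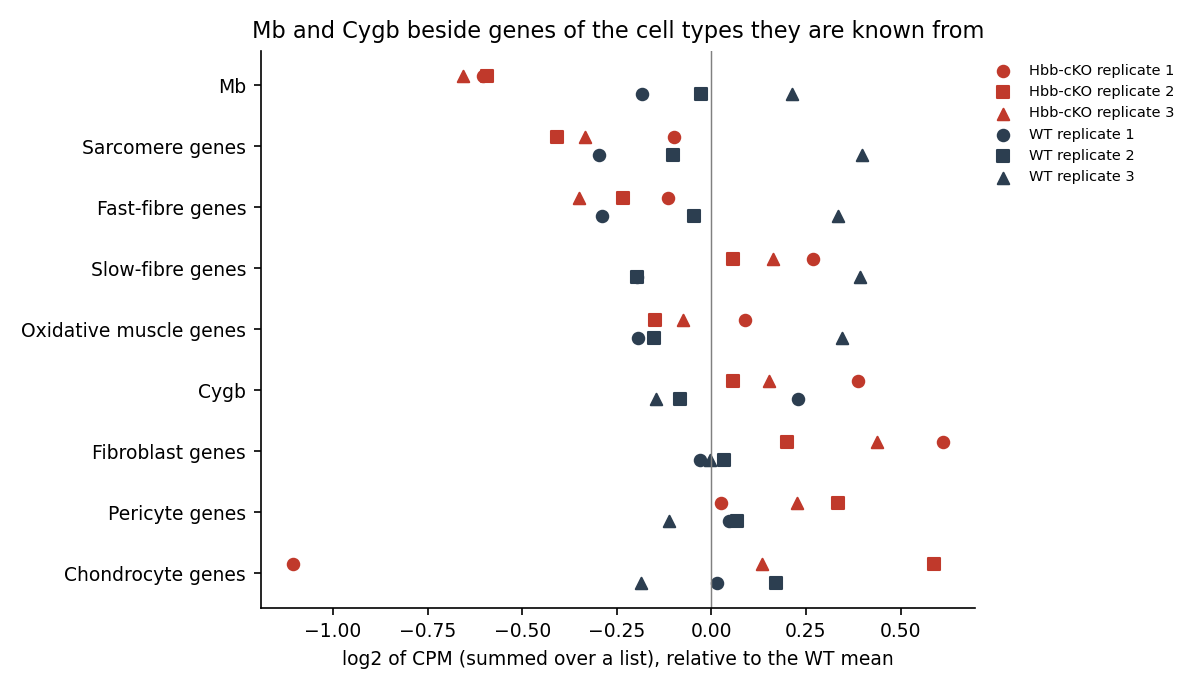
Log2 CPM of *Mb*, *Cygb* and summed lists per library, relative to the mean of the WT libraries (x axis), *Hbb*-cKO red and above WT dark. Replicates 1, 2 and 3 are circle, square and triangle, and some points lie on each other. *Mb* is separated between groups, and WT replicate 3 is highest in the muscle lists.

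*Mb* was also set against those muscle lists within each library. Which cells made the list genes was not measured in this bulk tissue, so the ratios are to list sums, not to fibres. Per 1000 CPM of slow-fibre genes it had 41.0, 47.9 and 42.5 CPM in *Hbb*-cKO, against 75.8, 84.4 and 66.4 in WT, and per 1000 CPM of oxidative muscle genes 17.3, 20.6 and 18.7 in *Hbb*-cKO, against 28.2, 30.5 and 25.5 in WT. Per 1000 CPM of fast-fibre genes it had 2.56, 2.81 and 2.91 in *Hbb*-cKO, against 3.87, 3.64 and 3.31 in WT. In all 3 of these ratios the groups did not overlap, with log2 differences of −0.78, −0.57 and −0.38 and an exact permutation p of 0.1 each, the smallest possible (adjusted p = 0.16 over 8 ratios). Against the whole sarcomere list the values were 1.08, 1.35 and 1.23 in *Hbb*-cKO and 1.66, 1.62 and 1.35 in WT, with the groups overlapping, and the difference was −0.34 (exact permutation p = 0.2, adjusted p = 0.267). With the mean log2 CPM of that list in place of its sum the difference was −0.56 and the groups did not overlap (exact permutation p = 0.1, adjusted p = 0.16). With the list's mean log2 CPM as a covariate, the log2 fold change of *Mb* was −0.59 (edgeR adjusted p = 0.130), against −0.63 without it.

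*Cygb* was set against stromal genes in the same way. The 15 fibroblast genes summed 67735 to 90060 CPM in *Hbb*-cKO and 57784 to 60311 in WT, and none passed 0.05 in edgeR, while 12 had a positive and 3 a negative log2 fold change (median 0.22, against −0.01 over all tested genes). *Dpt*, a matrix protein of fibroblasts, had 339, 284 and 329 CPM in *Hbb*-cKO, against 217, 238 and 184 in WT (log2 fold change 0.57, edgeR adjusted p = 0.241). *Mfap5*, a protein of elastic microfibrils, had 138, 129 and 117 CPM in *Hbb*-cKO, against 164, 166 and 164 in WT (log2 fold change −0.36, edgeR adjusted p = 0.317). *Dpt* lay higher and *Mfap5* lower in every *Hbb*-cKO library than in any WT library. *Col3a1*, a fibrillar collagen, had 12219.8, 11351 and 11433 CPM in *Hbb*-cKO, against 8719.6, 8878 and 8701 in WT (log2 fold change 0.41, edgeR adjusted p = 0.387). *Col1a1*, the main collagen of bone and skin and the most abundant of the list, had 37581, 24495 and 32978 CPM in *Hbb*-cKO, against 21442, 23546 and 20591 in WT (log2 fold change 0.54, edgeR adjusted p = 0.434). Both collagens lay higher in *Hbb*-cKO without overlap, and of these 4 genes *Dpt* and *Col3a1* passed 0.05 in DESeq2 (adjusted p = 0.0199 and 0.00856). Of all 15, 8 lay higher and 1 lower without overlap, against 8.7% and 8.96% of all tested genes.

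The 10 pericyte genes had a median of 0.22, with 8 positive and 2 negative, and none passed 0.05 in edgeR. *Kcnj8*, a potassium channel subunit, had 43.9, 32.9 and 36.5 CPM in *Hbb*-cKO, against 29.3, 33.7 and 29.5 in WT (log2 fold change 0.29, edgeR adjusted p = 0.533). Its partner *Abcc9* had 63.3, 63.1 and 59.98 CPM in *Hbb*-cKO, against 41.2, 32.7 and 69.3 in WT (log2 fold change 0.38, edgeR adjusted p = 0.673). The groups overlapped for both. *Rgs5*, a regulator of G-protein signalling, had 256, 308 and 260.1 CPM in *Hbb*-cKO, against 254, 247 and 192 in WT (log2 fold change 0.25, edgeR adjusted p = 0.616). *Mcam*, an adhesion molecule, had 134, 119 and 122 CPM in *Hbb*-cKO, against 124, 98.9 and 101 in WT (log2 fold change 0.21, edgeR adjusted p = 0.617). *Rgs5* was higher in *Hbb*-cKO without overlap, by a narrow margin, and *Mcam* overlapped. The proteoglycan *Cspg4*, the most abundant, had 243, 388 and 334 CPM in *Hbb*-cKO, against 279.6, 290.5 and 249.8 in WT (log2 fold change 0.23, edgeR adjusted p = 0.716). Within *Hbb*-cKO, *Cspg4* and the summed pericyte list (1114, 1383 and 1281 CPM) were lowest in replicate 1 and highest in replicate 2. The summed chondrocyte genes had the same order (21484, 69476 and 50680 CPM). Which cells made *Cspg4* was not tested.

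The 15 chondrocyte genes had a median of 0.06, and it was −0.38 without *Hbb*-cKO replicate 2 and −0.076 without WT replicate 3. *Col2a1*, the main collagen of cartilage and the most abundant, had 11307, 38294 and 28358 CPM in *Hbb*-cKO, against 26096, 29308 and 22280.2 in WT (log2 fold change 0.01, edgeR adjusted p = 0.999). *Comp*, a cartilage matrix protein, had 864, 2037 and 1262 CPM in *Hbb*-cKO, against 1236, 1407 and 739.7 in WT (log2 fold change 0.30, edgeR adjusted p = 0.841). *Hbb*-cKO replicate 1 was the lowest library for *Col2a1*, and the groups overlapped for both. *Ucma*, a secreted cartilage protein, had 142, 495 and 310.4 CPM in *Hbb*-cKO, against 335, 519 and 315 in WT (log2 fold change −0.30, edgeR adjusted p = 0.878). *Col11a2* and *Col11a1*, minor fibrillar collagens of cartilage, had log2 fold changes of 0.14 and 0.14 (edgeR adjusted p = 0.917 and 0.918).

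*Cygb* per 1000 CPM of the fibroblast list was 0.606, 0.640 and 0.580 in *Hbb*-cKO, against 0.846, 0.653 and 0.641 in WT, with hardly any distance between the closest libraries. The log2 difference was −0.22 (exact permutation p = 0.1), and 0.00 with the mean log2 CPM of the list in place of its sum. The sum is weighted to abundant collagens: in WT replicate 1, *Col1a1* and *Col3a1* had 21442 and 8719.6 of its 57784 CPM. Against the pericyte list the difference was 0.00 (exact permutation p = 1) and against the chondrocyte list 0.33 (exact permutation p = 0.9), and the sign of the last turned without *Hbb*-cKO replicate 1 (−0.26). The part of the cell types in these results was not tested.

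Genes around the reactions of globins were mixed. Of 19 nitric oxide and haem reduction genes, 18 were tested and none passed 0.05 in edgeR, 3 being higher and 1 lower at an unadjusted p under 0.05; over all tested genes 4.89% and 5.22% were. *Cyb5b*, the outer mitochondrial cytochrome b5, had 113, 98.9 and 115 CPM in *Hbb*-cKO, against 79.3, 75.7 and 66.7 in WT (log2 fold change 0.56, edgeR adjusted p = 0.176, DESeq2 0.00977). *Cyb5r3*, the most abundant and a reductase of cytochrome b5, had 265 ± 12.9 CPM in *Hbb*-cKO and 288 ± 23.5 in WT (s.e.m., n = 3 each). *Nos1*, the neuronal nitric oxide synthase, which muscle also makes, had 8.58, 4.71 and 8.59 CPM in *Hbb*-cKO, against 11.5, 9.85 and 12.5 in WT (adjusted p = 0.447 in edgeR). *Cyb5r2*, another such reductase, had 2.73, 2.61 and 2.31 CPM in *Hbb*-cKO, against 1.44, 1.40 and 1.85 in WT (log2 fold change 0.70, edgeR adjusted p = 0.375). *Gucy1a1*, a subunit of the nitric oxide receptor guanylate cyclase, had 28.4, 23.5 and 24.3 CPM in *Hbb*-cKO, against 19.9, 18.1 and 20.9 in WT (log2 fold change 0.37, edgeR adjusted p = 0.387). *Cyb5b*, *Cyb5r2* and *Gucy1a1* lay higher and *Nos1* lower in every *Hbb*-cKO library than in any WT library. Of all 18 tested, 3 lay higher and 2 lower without overlap, against 8.7% and 8.96% of all tested genes.

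Of 17 hypoxia targets, none passed 0.05 in edgeR and the median was −0.01. *Adm*, the vasodilator adrenomedullin, had 6.59, 6.87 and 6.65 CPM in *Hbb*-cKO, against 4.37, 4.20 and 3.98 in WT (log2 fold change 0.68, adjusted p = 0.228 in edgeR). *Ndrg1*, a stress-responsive gene, had 40.2, 44.6 and 40.8 in *Hbb*-cKO, against 49.5, 48.6 and 55.6 in WT (log2 fold change −0.29, adjusted p = 0.411 in edgeR). The pair lay in opposite directions, each without overlap. *Egln3*, an oxygen-sensing prolyl hydroxylase, had 8.58, 12.3 and 13.5 CPM in *Hbb*-cKO, against 14.6, 12.8 and 34.4 in WT (log2 fold change −0.85, edgeR adjusted p = 0.538). *P4ha1*, a collagen prolyl hydroxylase subunit, had 257, 385 and 341 CPM in *Hbb*-cKO, against 261, 323 and 227 in WT (log2 fold change 0.28, edgeR adjusted p = 0.677). The groups overlapped for both, and WT replicate 3 was the highest for *Egln3*. *Ldha*, the most abundant, a lactate dehydrogenase subunit, had 752 ± 39.8 CPM in *Hbb*-cKO and 767 ± 55.8 in WT (s.e.m., n = 3 each).

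**Figure D4:**
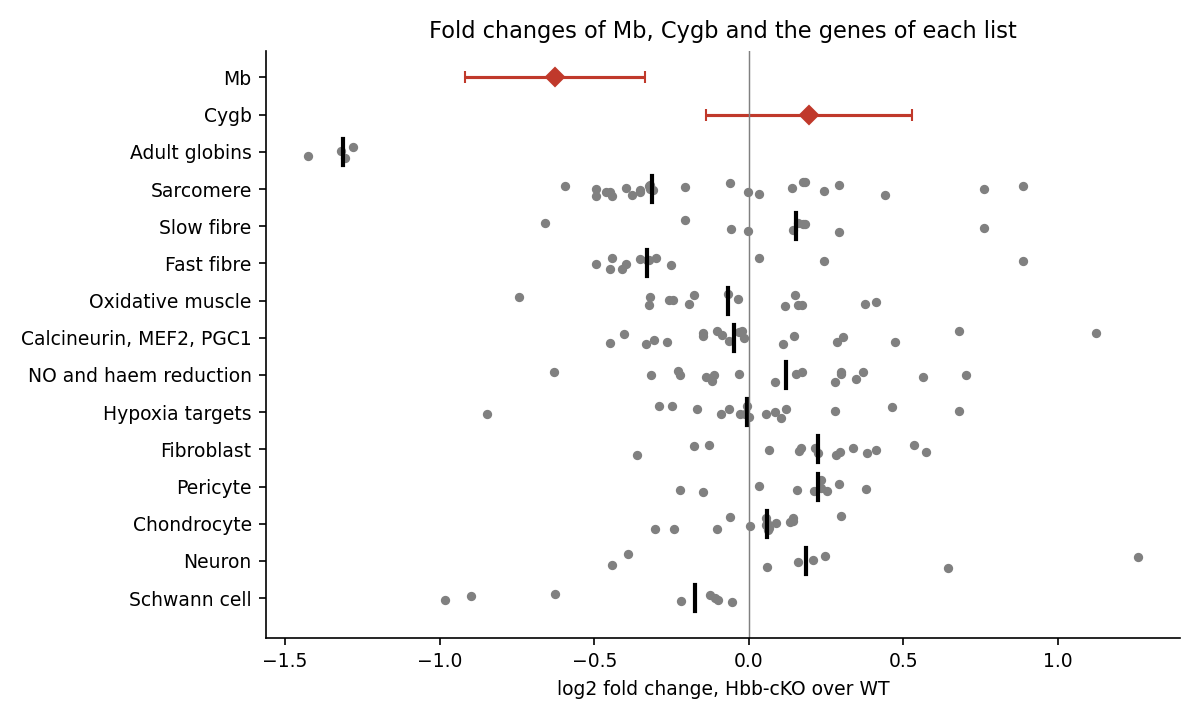
Log2 fold change of *Hbb*-cKO over WT (x axis) for *Mb* and *Cygb* (diamonds with 95% intervals) and for tested genes of each list (grey points; black line, list median). *Mb* is at −0.63, *Cygb* at 0.20 with an interval that spans 0, and the adult globins lie lowest.

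The genes most alike to each tested member were taken by the smallest SD of the log2 ratio over the 6 libraries, among 5544 well-expressed genes. For *Mb* these were *Fam177a2* (SD 0.043), *Phlda3* (0.109), *Entpd4b* (0.118), *Lmbr1l* (0.121), *Tpm1* (0.123) and *Pnrc1* (0.126), where the median gene had 0.404. *Tpm1* was the only one of these 6 in a muscle list, and *Fam177a2* and *Entpd4b* have close copies in the genome, so that their reads can be split. For *Cygb* these were *Pdgfb* (0.0447), a growth factor of vessel walls, *Lipa* (0.0476), a lysosomal lipase, *B4galt5* (0.0567), the pericyte-list gene *Mcam* (0.0637), *Abca3* (0.0651) and *Tlnrd1* (0.0718), where the median gene had 0.267. The log2 fold changes ran from −0.72 to −0.42 for the 6 genes of *Mb* and from 0.17 to 0.27 for the 6 of *Cygb*. The SD was taken over both groups together, which favours genes with the member's own group difference. All points of a pair share their library, so these are descriptions of 6 libraries.

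The genes that overlap *Mb* and *Cygb* had few counts of their own, and reads over the shared bases were not measured. *Mb* shares 412 exon bases with the antisense *Gm49540*, which had 0 to 3 counts in any library, and 64 with *Apol6* (45 to 142 counts); *Cygb* shares 201 with *Prcd* (9 to 17 counts). *Apol6* and *Prcd* had log2 fold changes of 0.13 and 0.18 (edgeR adjusted p = 0.956 and 0.917). Of the nearest genes that share no exon base, *Gm35933* and *Gm24753* beside *Mb* had at most 1 count and *Tmem63c* beside *Ngb* 2 to 6, and *Rhbdf2* and *Snhg16* beside *Cygb* and *Pomt2* beside *Ngb* had log2 fold changes of −0.12, −0.24 and 0.16, none past 0.05 in edgeR. The labels and methods do not state the strand setting of the counting, so that reads over the shared bases cannot be assigned by strand. No 50-base stretch of a member's exons occurred in another globin.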

How the data were processed

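Members and gene lists were chosen with earlier results of these data known. The authors deposited whole-number counts per gene, not normalized. HISAT2 2.1.0, fastp 0.19.5, CASAVA 1.8, edgeR and StringTie appear in the submitters' processing notes, and build, settings and strand were not stated in the labels or methods. Gene positions matched GENCODE M21 on GRCm38 for 99.4% of identifiers found there. Counts were fitted in edgeR 4.0.16 (R 4.3.3) with TMM factors, filterByExpr (minimum count 10, minimum total 15) and a robust quasi-likelihood test, adjusted over 17175 genes at 0.05; DESeq2 1.42.0 was an alternative. CPM used TMM-scaled library sizes. Single values were compared by exact two-sided permutation tests. Lists are described by counts and medians. Genes named for a small p often separate by that choice, so their lack of overlap is a description only. Over all tested genes, groups did not overlap for 8.7% as higher and 8.96% as lower in *Hbb*-cKO. The genes named were the members, neighbours, adult globins, up to 4 of the smallest p and the most abundant gene of each list, and the 6 most alike to each tested member. Others named (*Nppa*, *Nppb*, *Myl7*, *Ppargc1a*, *Xist*, other scarce globins) were picked after values were seen. A result that the rule names is not reported here. No library pair was alike within sampling noise (chi-square per gene 14.6 to 38.6). Both edgeR and DESeq2 were run on simulated counts drawn with the spread that edgeR had fitted to these data. Their power for a change of the size seen in *Mb* is not given here.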

Additional observations from a re-analysis of the deposited data

How the results depend on the processing

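The log2 fold change of *Mb* stayed negative under 15 alternatives (−0.80 to −0.51, adjusted p from 0.00893 to 0.579), and passed 0.05 in 1 of them, DESeq2 (−0.62). *Cygb* stayed between 0.10 and 0.35 and never passed. *Ngb* ranged from −1.92 to −1.17 on leaving out each library, and was −1.36 on library totals without TMM factors, an alternative chosen after seeing the data. The number of genes past 0.05 was 18, and 249 in DESeq2, 60 with any count, 48 with Y-linked expression and 32 with the sarcomere score as a covariate, and 1 to 39 on leaving out a library (39 without WT replicate 3, 1 without WT replicate 1, 2 without *Hbb*-cKO replicate 3, 6 without *Hbb*-cKO replicate 2). With the replicate number as a block it was 4 and *Mb* had −0.62 (adjusted p = 0.394); same-numbered libraries did not deviate together (correlations −0.11 to −0.03), so the numbers are not taken to pair libraries. With Y-linked expression as a covariate *Mb* had −0.80 (adjusted p = 0.0618). The order of levels held in each set of 5 libraries, where the exact permutation p cannot go below 0.0625 (log2 ratios 1.03 to 1.30 for *Mb* over *Cygb*, 7.27 to 7.61 for *Mb* over *Ngb*, 6.01 to 6.49 for *Cygb* over *Ngb*). The sign of *Cygb* over fibroblast genes turned with the mean log2 CPM of the list (0.000350), that over pericyte genes without *Hbb*-cKO replicate 1 (−0.18), WT replicate 2 (−0.071) or WT replicate 3 (−0.014; range on leaving out a library −0.18 to 0.14), and that over chondrocyte genes without *Hbb*-cKO replicate 1 (−0.26; range −0.26 to 0.76). Of 79 other named genes under 15 alternatives, 30 of 1182 values had the opposite sign, all of fold changes not past 0.05. With Y-linked expression as a covariate these were *Hbq1b* (0.99), *Myl2* (−0.079), *Ckmt2* (−0.045), *Mef2c* (−0.069), *Cyb5r3* (0.091), *Abcc9* (−0.062); *Col2a1* turned with the block (−0.15) and the sarcomere score (−0.058). On leaving out a library the range crossed 0 for *Hbq1b* (−0.76 to 0.16), *Ryr2* (−0.29 to 0.16), *Myl4* (−0.10 to 0.17), *Pdk4* (−1.10 to 0.098), *Slc25a4* (−0.36 to 0.0094), *Mef2c* (−0.000741 to 0.56), *Ldha* (−0.11 to 0.079), *Comp* (−0.085 to 0.56), *Ucma* (−0.78 to 0.056), *Col11a2* (−0.081 to 0.43), *Col11a1* (−0.20 to 0.42), *Col2a1* (−0.38 to 0.37), *Mbp* (−1.61 to 0.087), *Apol6* (−0.20 to 0.80), *Prcd* (−0.054 to 0.38), *Ppargc1a* (−0.71 to 0.13). The 4 adult globins and 9 other named genes passed 0.05 in DESeq2, and the 4 adult globins also with the sarcomere score or without WT replicate 3. The causes were not tested. With 3 libraries a group and few *Ngb* counts, depth limits *Ngb*.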
